A study of Mus musculus with 8 samples.

Results

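A set of 9 interferon-stimulated genes was followed through a knockdown experiment in mouse embryonic stem cells, as a check on whether the siRNAs themselves were sensed as foreign RNA. It held Isg15, Ifit1, Ifit2, Ifit3, Ifitm1, Ifitm2, Ifitm3, Irf1 and Irf7, each read by all probes, control probes aside, whose gene name or accession led to one of these symbols. They make up 9 of the 32530 genes on the array, read by 11 probes, and 6 of them were bright enough to be among the 22422 genes tested. Transcripts that could not be given a gene symbol count as genes here and in all shares of genes below, and 15565 of the 22422 had a symbol. The cells were of the R1 line, a pluripotent mouse line that forms embryoid bodies in suspension. Cells had received siRNA 1 or siRNA 2, both directed against CnAβ1, or a control siRNA. CnAβ1 is made by alternative splicing of Ppp3cb, the gene of the catalytic Aβ subunit of calcineurin. All 3 groups had been differentiated as embryoid bodies for 48 h and were sampled 48 h after transfection, on 3 arrays of siRNA 1, 2 arrays of siRNA 2 and 3 arrays of Control. Every group, Control included, had thus received an siRNA, and no untransfected or mock-transfected cells were analysed here, so a response common to all 3 siRNAs would not show as a difference between groups. Separate cultures are not stated for the replicates, and the p-values then reflect a spread that may be technical.

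Interferon-stimulated genes are the output of a relay. Double-stranded RNA in the cell is bound by sensors, which lead to the release of type I interferon, and interferon at its receptor activates JAK kinases and STAT proteins that bind an element called ISRE in the promoters of these genes. Pluripotent cells are known for a weak response to double-stranded RNA and to interferon, and they express some interferon-stimulated genes, the Ifitm genes among them, without any stimulus.

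The promoters of 4 members are shown because 2 of them belong to genes whose response to interferon is the reason for using them as a readout, and the other 2 to genes that were bright on all arrays here. Each runs from 250 bases before to 50 bases after a start site in RefSeq, build GRCm38.p6. Capitals mark matches to GAAANNGAA, the repeat at the core of an ISRE, on either strand, with overlapping matches joined. The Isg15 promoter is at chr4:156200769-156201068, minus strand, and holds 3 matches. That of Ifit1 is at chr19:34640639-34640938, plus strand, with 3 matches. That of Ifitm3 is at chr7:141010695-141010994, minus strand, with 2 matches, both after the start site. That of Ifitm1 is at chr7:140967826-140968125, plus strand, and has no match in this window.
Isg15: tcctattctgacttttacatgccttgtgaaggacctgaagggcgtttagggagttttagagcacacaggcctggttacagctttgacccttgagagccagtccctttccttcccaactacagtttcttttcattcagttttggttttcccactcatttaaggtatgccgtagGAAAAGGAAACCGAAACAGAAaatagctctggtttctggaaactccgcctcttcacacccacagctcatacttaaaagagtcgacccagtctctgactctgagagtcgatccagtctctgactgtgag
Ifit1: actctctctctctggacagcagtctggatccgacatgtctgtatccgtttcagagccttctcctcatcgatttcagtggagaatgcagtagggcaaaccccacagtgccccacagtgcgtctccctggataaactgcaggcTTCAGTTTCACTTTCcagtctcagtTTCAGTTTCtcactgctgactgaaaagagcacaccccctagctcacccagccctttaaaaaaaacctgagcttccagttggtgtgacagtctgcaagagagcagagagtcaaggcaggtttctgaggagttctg
Ifitm3: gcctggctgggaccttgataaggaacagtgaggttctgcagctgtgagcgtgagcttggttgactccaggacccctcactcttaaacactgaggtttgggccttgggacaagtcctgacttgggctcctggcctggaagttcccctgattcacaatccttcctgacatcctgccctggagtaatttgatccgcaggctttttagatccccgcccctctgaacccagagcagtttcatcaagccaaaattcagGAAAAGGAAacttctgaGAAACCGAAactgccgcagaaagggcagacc
Ifitm1: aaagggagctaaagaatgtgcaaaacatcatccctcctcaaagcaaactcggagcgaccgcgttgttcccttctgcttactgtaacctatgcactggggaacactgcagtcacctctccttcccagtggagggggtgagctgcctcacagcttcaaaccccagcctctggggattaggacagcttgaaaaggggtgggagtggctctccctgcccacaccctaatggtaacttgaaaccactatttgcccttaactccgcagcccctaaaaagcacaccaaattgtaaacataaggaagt

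All 9 members matched the promoter table, in 11 entries because Ifit2 and Irf1 have 2 start sites each. The GAAANNGAA core was present in the promoters of 5 members, Isg15, Ifit1, Ifit3, Ifitm2 and Ifitm3, whereas 8.56% of all 32851 promoters of the same length hold it. The motif TTCNNNGAA, the core of the element that answers to interferon gamma, was found in 1 entry each of Ifit2 and Irf1 and in Ifitm3, against 8.30% of all promoters. A match describes the letters only. By chromosome, Isg15 lies on 4, Irf1 on 11, the 3 Ifit genes on 19, and the 3 Ifitm genes and Irf7 on 7.

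Each array had 43020 spots besides its control spots, 68.0% to 75.1% of them well above background, and a 75th percentile of processed signal from 838 to 1031. The arrays lay on 3 slides. Slide 1 carried replicate 1 of each group, slide 2 replicate 3 of siRNA 1 and Control 2, and slide 3 replicate 2 of each siRNA and Control 3. The arrays of slide 1 stood apart, with 1330 genes or 5.93% differing from the other slides within groups in limma's test. Of the 6 tested members 0 were among them, but at that share 6 genes are too few to show whether the members were free of a slide difference. Their own slide differences ran from -0.15 for Isg15 to 0.21 for Irf1. Each siRNA 1 array was at position 2 of its slide, each siRNA 2 array at position 3 and each Control array at position 1, so position and group cannot be told apart. Of 8 pluripotent cell markers, 8 were well above background on all arrays, Pou5f1 and Nanog included. Ppp3cb had a log2 level of 0.18, 0.39 and 0.61 in siRNA 1, of 0.42 and 0.62 in siRNA 2 and of 0.75, 0.52 and 0.62 in Control, and the 5 siRNA arrays differed from Control by -0.19 (exact two-sided permutation p = 0.143). Whether its probe detects CnAβ1 is unknown here, so the knockdown itself is not checked by it. In RNA of whole embryoid bodies, fewer cells of a type and less RNA per cell cannot be told apart.

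None of the 6 tested members differed between siRNA and Control arrays past the threshold, an adjusted p under 0.05 over all genes. Levels are log2 processed signal relative to the 75th percentile of the array, and differences are in log2 units from limma's fit over the 3 groups. For the mean of both siRNAs against Control the members' differences ran from -0.21 for Isg15 to 0.22 for Ifit2, with a median of 0.0084, while all tested genes had a median of 0.0072. Of the 6 members, 4 stood higher and 2 lower, against 52.9% of all genes higher. The threshold was passed by 0 genes, or 0%, in each of the 4 comparisons, while 804 genes had an unadjusted p under 0.05 for the mean of both siRNAs. Among the members 1 of 6, Isg15, had such an unadjusted p for the mean of both siRNAs, against 3.59% of all genes. For siRNA 1 against Control it was 0 of 6, with 3.5% of all genes, and for siRNA 2 against Control it was 1 of 6, again Isg15, with 3.35%. The difference of siRNA 2 from siRNA 1 gave 0 of 6, with 3.36% of all genes. In 0 of 6 members did all 5 siRNA arrays lie on one side of all 3 Control arrays, as they did for 3.44% of all genes. The upper end of the 95% interval of the fold, siRNA over Control, lay between 0.991 for Isg15 and 1.55 for Ifit2, and it was 1.47 for Ifitm1, 1.28 for Irf1, 1.21 for Ifitm2 and 1.14 for Ifitm3.

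**Figure D1:**
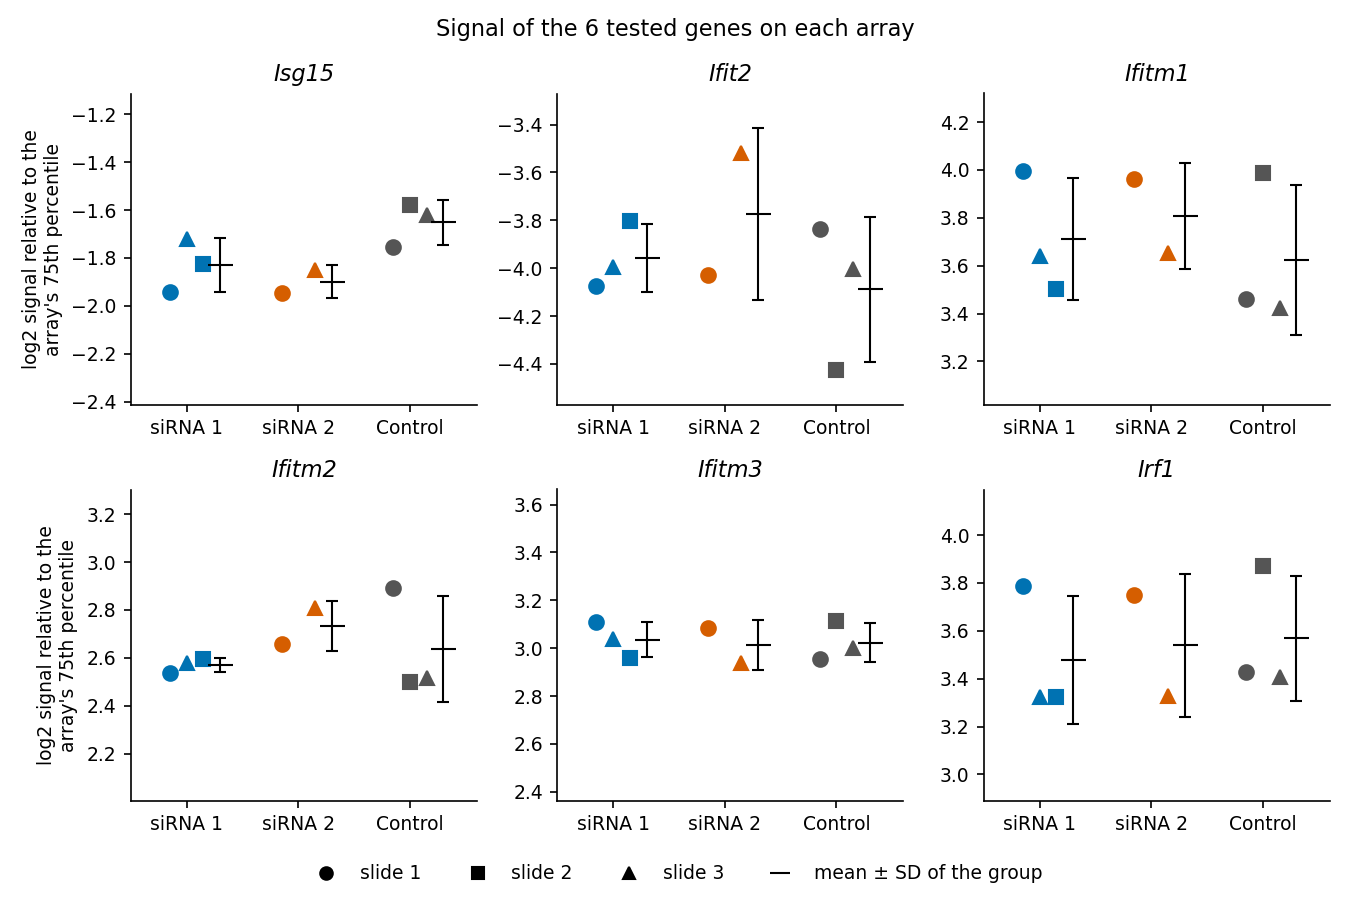
Log2 processed signal minus that of the array's 75th percentile (y axis) on each array of siRNA 1, siRNA 2 and Control (x axis) for the 6 tested genes, with marker shape giving the slide and bars the mean ± SD of the group. In no panel do all 5 siRNA arrays lie on one side of all 3 Control arrays, and in Isg15 the siRNA 1 array of slide 3 at -1.72 lies above the Control array of slide 1 at -1.76.

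Isg15 encodes a ubiquitin-like protein that is released and attached to other proteins after interferon, and it is among the genes most used as a sign of that response. Its log2 level was -1.94, -1.72 and -1.82 on the siRNA 1 arrays, -1.95 and -1.85 on the siRNA 2 arrays, and -1.76, -1.58 and -1.62 on the Control arrays. The siRNA arrays were thus mostly the lower ones, and only replicate 2 of siRNA 1 lay above the lowest Control array. Group means with their SD were -1.83 ± 0.11 for siRNA 1 (n = 3), -1.90 ± 0.07 for siRNA 2 (n = 2) and -1.65 ± 0.09 for Control (n = 3). For the mean of both siRNAs the difference was -0.21 (95% interval -0.41 to -0.01), or 0.863-fold, and limma's adjusted p was 0.9999. The exact two-sided permutation test of 5 against 3 arrays gave p = 0.0536, where 56 splits allow no value under 0.0179. Within slides, each siRNA array was set against the Control array beside it. Isg15 was lower in 5 of 5 such pairs, with differences from -0.24 to -0.10, while 10.3% of all genes had all 5 of these differences on one side of 0. Both siRNA 2 arrays lay below all 3 Control arrays, the only such separation of siRNA 2 from Control among the 6 members, against 16.9% of all genes. For siRNA 1, 0 of 6 members separated in this way, against 7.9% of all genes. Between the siRNAs Isg15 differed by -0.07 (95% interval -0.32 to 0.18). The order of the group means was siRNA 2, siRNA 1 and Control, from low to high, and siRNA 2 and siRNA 1 overlapped. A second Isg15 probe was well above background on 1 of 8 arrays, Control 2, and was not tested.

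Primitive and visceral endoderm markers are known from the outer layer of embryoid bodies, and 10 of the 11 listed were tested. Under siRNA 1, 8 of 10 had lower values than Control (median difference -0.28). It was 10 of 10 under siRNA 2 (median -1.18) and 10 of 10 for the mean of both siRNAs (median -0.72). Of all genes, 58.2%, 49.8% and 52.9% stood higher in these 3 comparisons. With 3.5%, 3.35% and 3.59% of all genes at an unadjusted p under 0.05 in limma, it was 0, 8 and 4 of the 10 markers. The log2 of their summed signal lay between 2.48 and 3.20 in siRNA 1, between 1.77 and 1.81 in siRNA 2 and between 2.38 and 3.42 in Control, and only Apoa1 among them was not tested. Mesoderm markers had a median of -0.44 under siRNA 1, of -0.79 under siRNA 2 and of -0.62 for the mean of both, over 7 tested members of 9 listed, and their summed signal lay between 1.47 and 2.08 in siRNA 1, between 1.45 and 1.46 in siRNA 2 and between 2.00 and 2.62 in Control. For the mean of both siRNAs, median differences of the other marker lists were 0.19 for pluripotent cells (8 of 8 tested), 0.05 for germ cell precursors (9 of 9), -0.0023 for fibroblasts (6 of 8), -0.19 for blood and macrophages (6 of 8) and 0.13 for endothelium (3 of 4). The pluripotent median was 0.46 under siRNA 1, with 8 of 8 higher against 58.2% of all genes. Under siRNA 2 it was 0.09, with 5 of 8 higher against 49.8%. All 8 were lower in siRNA 2 than in siRNA 1, with a median of -0.26. The summed signal of blood and macrophage markers lay between 0.47 and 0.87 in siRNA 1, between 0.50 and 0.81 in siRNA 2 and between 0.10 and 1.24 in Control. The part of these cell types in the Isg15 values was not tested.

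Ifit1, Ifit2 and Ifit3 encode proteins with tetratricopeptide repeats that bind viral RNA or hold back translation, and in most cells they are nearly silent until interferon arrives. Ifit1 was not well above background on any array. Its processed signal, on the linear scale, was 12.5, 6.67 and 9.78 in siRNA 1, 10.5 and 5.40 in siRNA 2, and 3.99, 10.4 and 9.82 in Control. These values overlap between groups and lie around the lowest signal that counted as well above background, which was between 9.53 and 14.2 on the 8 arrays. Ifit3 was not well above background on any array either, at 2.54, 4.25 and 3.36 in siRNA 1, 2.37 and 2.54 in siRNA 2, and 2.97, 2.20 and 2.49 in Control. All 8 values lie below the lowest signal well above background on their array. Neither gene was tested, and no fold is given for them because both sides are only bounded. The 3 GAAANNGAA matches printed for Ifit1 belong to a gene with no signal well above background in any group, and Ifit3 has 3 as well.

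**Figure D2:**
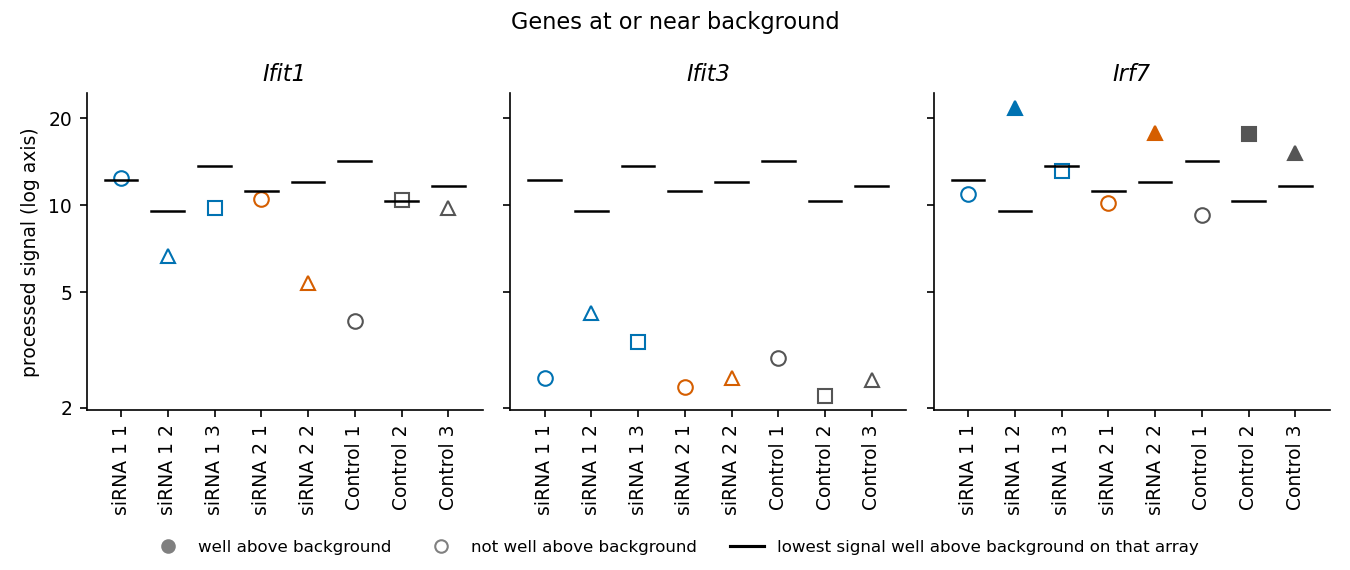
Processed signal on a log axis (y axis) of Ifit1, Ifit3 and Irf7 on each array (x axis, group and replicate), with filled markers where the probe was well above background, marker shape giving the slide as in the plot of tested genes, and a black bar at the lowest signal well above background on that array. Ifit1 and Ifit3 have 0 filled markers of 8, and Irf7 has 4, 1 in each siRNA group and 2 in Control.

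Ifit2 was well above background on all 8 arrays. Its log2 level was -4.07, -4.00 and -3.80 in siRNA 1, -4.03 and -3.52 in siRNA 2, and -3.84, -4.43 and -4.00 in Control. The highest array was replicate 2 of siRNA 2 and the lowest was Control 2, with the other 6 between -4.07 and -3.80. The mean of both siRNAs differed from Control by 0.22 (95% interval -0.19 to 0.64), and the exact two-sided permutation test gave p = 0.339. Without Control replicate 2 the difference was 0.05, without siRNA 2 replicate 2 it was 0.10, and without the slide 1 arrays it was 0.51. Within slides the differences were -0.24 and -0.19 on slide 1, 0.62 on slide 2, and 0.0072 and 0.48 on slide 3. In order of level the groups were siRNA 2 (-3.77 ± 0.36, n = 2), siRNA 1 (-3.96 ± 0.14, n = 3) and Control (-4.09 ± 0.30, n = 3), each with its SD, and neighbours overlapped. Ifit2 was thus a measurable Ifit transcript in all groups. An increase of up to 1.55-fold is within its interval for the mean of both siRNAs, and of up to 1.77-fold for siRNA 2 alone.

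The Ifitm genes encode small membrane proteins that block the entry of viruses, and Ifitm3, also called fragilis, is known in the mouse as a marker of early germ cells. Ifitm1 had log2 levels of 3.99, 3.64 and 3.50 in siRNA 1, 3.96 and 3.65 in siRNA 2, and 3.46, 3.99 and 3.43 in Control. The highest array of each group lay between 3.96 and 3.99, so the groups overlapped. The difference for the mean of both siRNAs was 0.14 (95% interval -0.29 to 0.56, exact two-sided permutation p = 0.5). Within slides it was 0.53 and 0.50 on slide 1, -0.48 on slide 2, and 0.21 and 0.23 on slide 3. Without the slide 1 arrays it turned to -0.09. With their SD, the group means were 3.81 ± 0.22 in siRNA 2 (n = 2), 3.71 ± 0.25 in siRNA 1 (n = 3) and 3.62 ± 0.31 in Control (n = 3), and no neighbours in this order differed beyond their spread.

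Ifitm2 had log2 levels of 2.54, 2.58 and 2.59 in siRNA 1, 2.66 and 2.81 in siRNA 2, and 2.89, 2.50 and 2.52 in Control. The 3 siRNA 1 arrays lay close together, and Control held both the highest and the lowest array. The mean of both siRNAs differed from Control by 0.01 (95% interval -0.24 to 0.27). Both siRNA 2 arrays lay above all 3 siRNA 1 arrays, in Ifitm2 alone among the 6 members, while such a separation held for 19.1% of all genes. That difference was 0.16 (95% interval -0.16 to 0.48), and its exact two-sided permutation p of 0.1 is the smallest that 2 against 3 arrays can give. Within slides the siRNA arrays differed from Control by -0.36 to 0.29, 3 higher and 2 lower. Without the slide 1 arrays siRNA 1 differed from Control by 0.08, against -0.07 with them.

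Ifitm3 was the member with the narrowest interval. Its probe was printed 10 times on each array, and the log2 signals of the 10 spots had an SD between 0.07 and 0.13 within an array. The mean log2 level per array was 3.11, 3.04 and 2.96 in siRNA 1, 3.09 and 2.94 in siRNA 2, and 2.95, 3.11 and 3.00 in Control. The whole range over 8 arrays was 0.17, or 1.13-fold, and the 3 groups covered nearly the same range. The mean of both siRNAs differed from Control by 0.0018 (95% interval -0.18 to 0.19, exact two-sided permutation p = 0.946). Within slides the differences ran from -0.15 to 0.16, 3 higher and 2 lower. The 95% interval of its fold ran from 0.880 to 1.14. The sign of so small a difference turned in 9 of 21 alternatives, among them quantile normalization with -0.01 and the data without slide 1 with -0.09.

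Among the closest relatives of these genes, 7 were listed, 6 had a probe and 2 were tested. Ifit1bl2, a copy in the Ifit cluster, was higher by 0.13 (95% interval -0.35 to 0.62), and without the slide 1 arrays the difference was -0.22. Ifitm5, known in bone-forming cells, differed by 0.08 (95% interval -0.30 to 0.47) and by -0.02 without slide 1. Ifit1bl1, Ifit3b and Ifitm10 were not well above background on any array, and Ifitm6 was on 3 of 8. Members of these families are similar in sequence, and whether a probe named for one also reads another was not tested.

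Irf1 and Irf7 are transcription factors of the interferon regulatory factor family. Irf1 responds early to interferon gamma and to NF-kB, and Irf7 is the factor that drives the later burst of interferon alpha genes. Irf1 had log2 levels of 3.79, 3.32 and 3.33 in siRNA 1, 3.75 and 3.33 in siRNA 2, and 3.43, 3.87 and 3.41 in Control. The highest array of each group lay between 3.75 and 3.87, and the remaining 5 lay between 3.32 and 3.43. The mean of both siRNAs differed from Control by -0.06 (95% interval -0.48 to 0.36, exact two-sided permutation p = 0.589). Within slides the differences ran from -0.54 to 0.36, 2 higher and 3 lower. Without the slide 1 arrays the difference was -0.31 and without Control replicate 2 it was 0.09. The mean and SD of each group were 3.54 ± 0.30 in siRNA 2 (n = 2), 3.48 ± 0.27 in siRNA 1 (n = 3) and 3.57 ± 0.26 in Control (n = 3), so their order was within the spread. A second Irf1 probe was well above background on all 8 arrays. Its levels were -4.41, -5.40 and -5.18 in siRNA 1, -4.28 and -5.23 in siRNA 2, and -5.46, -3.96 and -4.76 in Control, with the same 3 arrays at the top as in the first probe.

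Irf7 was well above background on 4 of 8 arrays, replicate 2 of siRNA 1, replicate 2 of siRNA 2, Control 2 and Control 3. Because no group had it well above background on every array, it was not tested. Its processed signal was 11.0, 21.7 and 13.2 in siRNA 1, 10.2 and 17.8 in siRNA 2, and 9.22, 17.6 and 15.1 in Control. The highest array of each group lay between 17.6 and 21.7, and the lowest array in each was the one on slide 1.

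**Figure D3:**
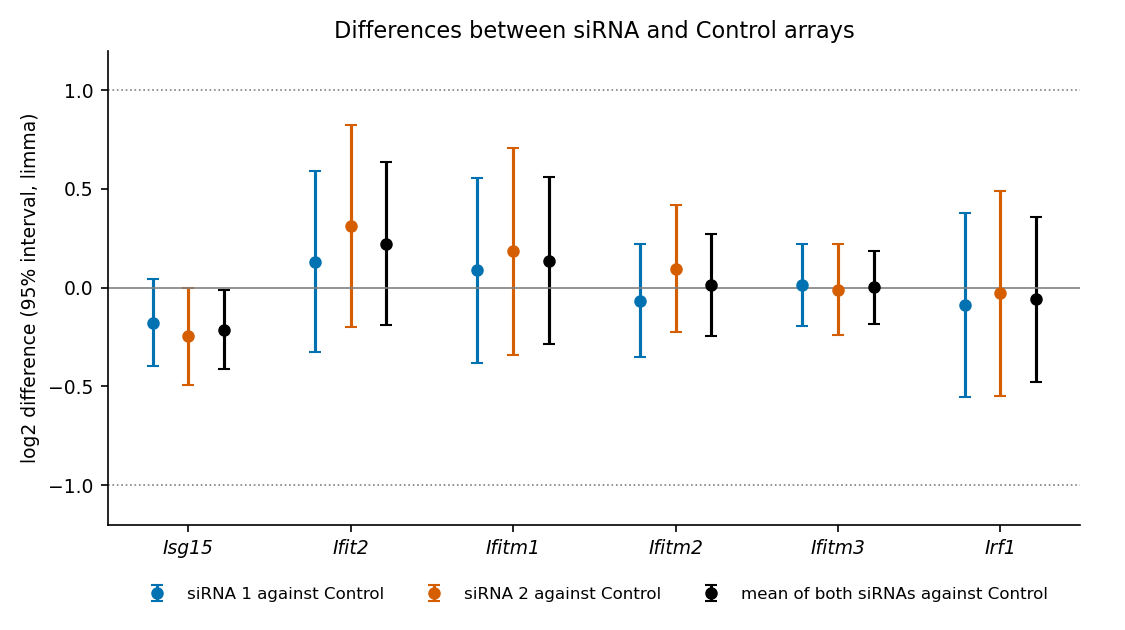
Log2 difference with its 95% interval from limma (y axis) for the 6 tested genes (x axis), for siRNA 1 against Control, siRNA 2 against Control and the mean of both. Dotted lines mark a doubling and a halving, which no interval reaches, and 0 lies inside each interval except for Isg15 in siRNA 2 and in the mean of both.

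The comparisons of each siRNA with Control share the Control arrays. For siRNA 1 and siRNA 2 the differences were -0.18 and -0.25 in Isg15, 0.13 and 0.31 in Ifit2, 0.09 and 0.18 in Ifitm1, -0.07 and 0.10 in Ifitm2, 0.01 and -0.0097 in Ifitm3, and -0.09 and -0.03 in Irf1. The tests of siRNA 2 against siRNA 1 had intervals of -0.33 to 0.69 in Ifit2, -0.43 to 0.62 in Ifitm1, -0.25 to 0.21 in Ifitm3 and -0.46 to 0.58 in Irf1. All of them include 0, and those of Ifit2, Ifitm1 and Irf1 are wide.

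Several members varied over the arrays in a way that crossed the groups. Ifitm1, Ifitm3 and both Irf1 probes had their 3 highest arrays in replicate 1 of siRNA 1, replicate 1 of siRNA 2 and Control 2, 1 array of each group. The first 2 of these arrays lay on slide 1 and the last on slide 2, so this set of arrays follows neither the groups nor the slides. As a description over 8 arrays that share scaling and slides, Pearson's r was 0.88 between Ifitm1 and Irf1, 0.88 between Ifitm3 and Irf1 and 0.87 between Ifitm1 and Ifitm3. Ifit2 ran the other way, with r of -0.85 against Ifitm3 and -0.76 against Irf1. Ifitm2 lies on the same chromosome as Ifitm1 and Ifitm3, and its r was -0.36 against Ifitm1 and -0.66 against Ifitm3. The members thus did not all vary together over these arrays.

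**Figure D4:**
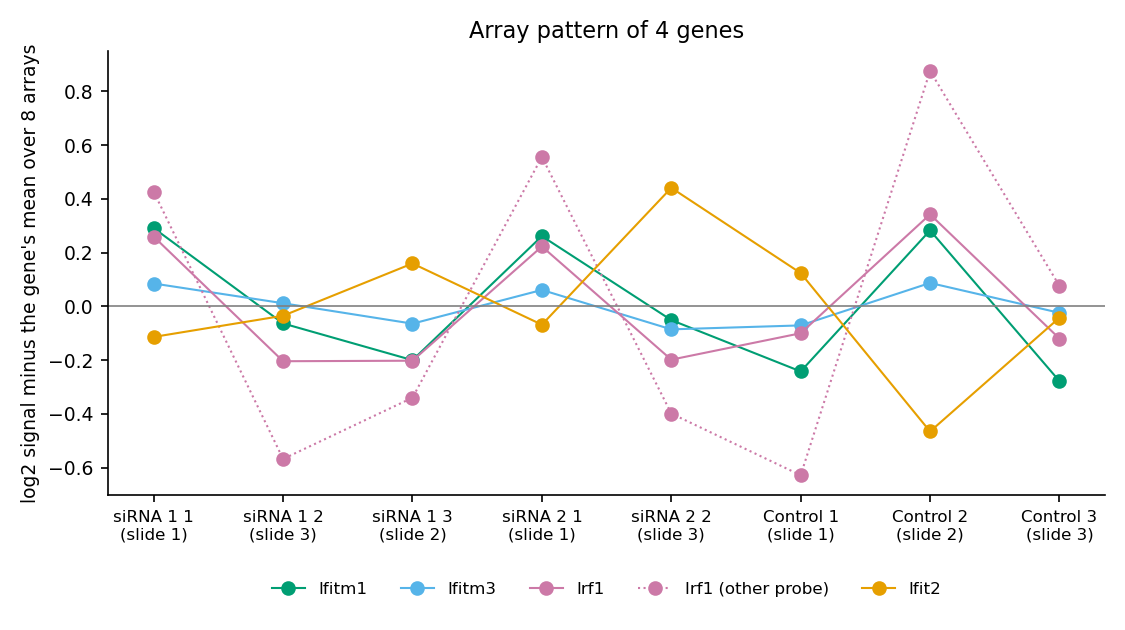
Log2 signal minus the mean of that probe over 8 arrays (y axis) on each array (x axis, group, replicate and slide), with lines joining the values of 1 probe and a dotted line for the second Irf1 probe. Ifitm1, Ifitm3 and both Irf1 probes are highest on 1 array of each group, and Ifit2 is lowest on Control 2.

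The 2 named genes whose levels followed each of the 3 most variable tested members most closely were found among 15554 tested genes with a symbol. For Irf1 they were Elk3 (r = 0.995 over 8 arrays) and Cpe (r = 0.985). Ifitm1 was followed by Nomo1 (r = 0.990) and Dtna (r = 0.989). For Ifit2 they were 1700019D03Rik (r = 0.996) and Aatf (r = 0.984). With 8 arrays and so many genes compared, these values serve as a description only.

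The rest of the pathway was read from lists of its steps, and 0 genes of any list passed the threshold. Of 12 interferon genes, 10 had a probe and 5 were tested, 1 higher and 4 lower than Control, with a median difference of -0.11 that ran from -0.21 without siRNA 1 replicate 3 to 0.012 without Control replicate 2. Ifnb1, the interferon first released by most cells, was not well above background on any array. Ifna2 differed by -0.17 (95% interval -0.55 to 0.21; -0.07 without Control replicate 2) and Ifnab by -0.03 (95% interval -0.23 to 0.17). Interferon alpha genes are near-identical copies, so the gene that these probes read is uncertain. In the receptor and JAK-STAT list 11 of 12 genes were tested, 4 higher and 7 lower, with a median of -0.05. Ifngr2, a chain of the interferon gamma receptor, differed by -0.30 (95% interval -0.49 to -0.12). Alone among the 11 tested, it had all 5 siRNA arrays below all Control arrays, while 3.44% of all genes separated to either side. Il10rb, the receptor chain used by lambda interferons, differed by -0.29 (95% interval -0.61 to 0.04), and by -0.18 without Control replicate 3.

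Sensors of foreign nucleic acid and their adaptors, the step at which an siRNA would first be met, had 17 of 20 genes tested, 10 higher and 7 lower, with a median of 0.02. Tbk1, the kinase that activates Irf3, differed by 0.18 (95% interval -0.06 to 0.42) and by 0.06 without Control replicate 2. Alone among the 17 tested, it had all 5 siRNA arrays above all Control arrays, while 3.44% of all genes separated to either side. Eif2ak2, the double-stranded RNA-activated kinase PKR and itself induced by interferon, differed by 0.14 (95% interval -0.08 to 0.35), and by 0.09 without siRNA 2 replicate 1. Tlr3, the endosomal receptor for double-stranded RNA, was not well above background on any array. The siRNA-processing list, Dicer1 and the Argonaute genes among them, had 7 of 7 genes tested, 1 higher and 6 lower, with a median of -0.05 that lay at -0.13 without siRNA 2 replicate 2, at 0.0059 without siRNA 1 replicate 1 and at 0.05 without the slide 1 arrays. Ago3 differed by -0.10 (95% interval -0.40 to 0.20; -0.02 without siRNA 1 replicate 3) and Dicer1 by -0.07 (95% interval -0.30 to 0.17; -0.0037 without siRNA 2 replicate 1).

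Among 48 other interferon-stimulated genes 43 were tested, 17 higher and 26 lower, with a median of -0.04. At an unadjusted p under 0.05 stood 5 of these 43, 2 higher and 3 lower, beside the 3.59% of all genes given above. Oasl1, a member of the oligoadenylate synthetase family, was higher by 0.48 (95% interval 0.15 to 0.82). Psmb8, a subunit of the immunoproteasome, differed by -0.39 (95% interval -0.65 to -0.12). Chosen after their values were seen, Herc6, the mouse ligase that attaches Isg15 to its targets, was higher by 0.63 (95% interval 0.16 to 1.10), and Rtp4 differed by -0.27 (95% interval -0.46 to -0.08). In each of these 4 genes the siRNA arrays did not overlap the Control arrays, and none passed the threshold (limma, adjusted p = 0.9999). All 4 were named for a small p or after their values were seen. They are also all of the 43 genes that separated in this way, so this count of 4 does not rest on which were named, while 3.44% of all genes separated. The list itself was chosen with earlier results of these data known. Parp9, the remaining gene of the 5, differed by -0.22 and overlapped. Over the alternatives Herc6 ranged from 0.09 to 0.77, Oasl1 from 0.20 to 0.58, Psmb8 from -0.49 to -0.23 and Rtp4 from -0.32 to -0.11. Herc6 had 2 probes, and the brighter one was itself dim, with log2 levels from -5.91 to -4.65, though well above background on all 8 arrays. Of the 43 genes, 4 higher and 4 lower had an unadjusted p under 0.05 for siRNA 1 against Control, with 3.5% of all genes. For siRNA 2 it was 3 higher and 2 lower, with 3.35%. Those of siRNA 1 included Cxcl10 (0.70) and Oas1a (0.45), higher, and Parp9 (-0.31) and Dtx3l (-0.30), lower, all named after their values were seen. For siRNA 2 these 4 differed by 0.06, 0.09, -0.13 and -0.09, in the same order.

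Of 7 other genes of the interferon regulatory factor list, 5 were tested, 2 higher and 3 lower, with a median of -0.03. Irf5 differed by 0.21 (95% interval -0.13 to 0.55; 0.11 without Control replicate 1) and Irf2bp2, a corepressor partner of Irf2, by -0.13 (95% interval -0.36 to 0.09; -0.06 without Control replicate 1). The negative regulators of interferon signalling had 5 of 5 genes tested, 2 higher and 3 lower, with a median of -0.02. Socs3, an inhibitor of JAK kinases, differed by -0.28 (95% interval -0.77 to 0.22; -0.44 without siRNA 2 replicate 1 and -0.11 without siRNA 2 replicate 2) and Ptpn2, a phosphatase of JAK and STAT proteins, by 0.03 (95% interval -0.15 to 0.21). NF-kB targets had 9 of 12 genes tested, 7 higher and 2 lower, with a median of 0.10 that turned to -0.20 without the slide 1 arrays. Relb differed by 0.13 (95% interval -0.08 to 0.35; 0.04 without Control replicate 2) and Tnf, an inflammatory cytokine, by -0.16 (95% interval -0.47 to 0.15; -0.28 without Control replicate 1 and -0.05 without Control replicate 2). With single arrays left out, the list medians ran from -0.066 to -0.0065 for receptors, from -0.0045 to 0.07 for sensors, from -0.08 to 0.04 for the other regulatory factors, from -0.06 to 0.02 for negative regulators and from -0.04 to 0.20 for NF-kB targets.

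**Figure D5:**
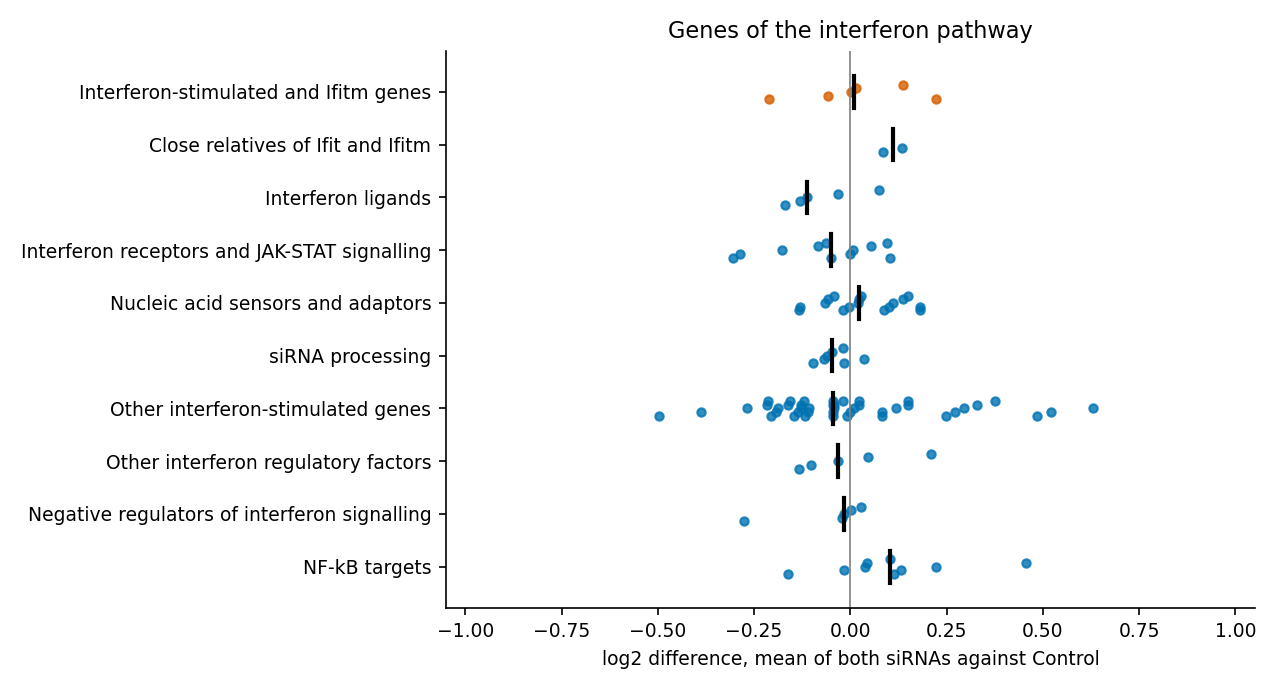
Log2 difference of the mean of both siRNAs against Control (x axis) for each tested gene (points) of the interferon pathway lists (rows), with the 9-gene set in orange, of which 6 are tested, and a black bar at the median of each list. Points lie on both sides of 0 in every list with more than 2 tested genes, and the other interferon-stimulated genes reach from -0.50 to 0.63.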

How the data were processed

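Total RNA was measured on 8 one-colour (Cy3) Agilent arrays. The intensity values in the deposited scanner files are background-corrected signals from Agilent Feature Extraction, version 10.7.3.1 per the file headers. The authors' deposited value table gives log2 values. Its columns named Control 2 and Control 3 match the opposite scanner files (r = 0.9999 against the other, -0.05 against their own), so the scanner files were used. Which naming is right is not known, and Control 2 and Control 3 are named by scanner file throughout. With the 2 columns exchanged, the table is log2 signal less the 75th percentile, centred per probe, with column medians of -0.04 to 0.02. The submitters' processing notes also name RMA, with no role given. Outlier spots were left out, spots of a probe averaged, and 26424 of 39429 probes named through RefSeq (GRCm38.p6). Each gene was represented by its brightest probe and tested if that probe was marked well above background on all arrays of 1 group or more. Intensities were taken as log2 minus the array's 75th percentile.

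One model over 3 groups was fitted with limma 3.58.1 (lmFit, eBayes) in R 4.3.3, with Benjamini-Hochberg adjustment over 22422 genes, 5 residual and 2.09 prior degrees of freedom, after tests on simulated data. Exact permutation tests used scipy 1.17.1 in Python 3.11.15. Members and lists were chosen with earlier results of these data known. Named were all members, for each list the genes past the threshold or else the 2 with the smallest p, and the 2 genes most like each tested member whose SD over arrays was at least 0.2. Ifnb1, Tlr3, Herc6, Rtp4, Cxcl10, Oas1a, Parp9 and Dtx3l, and untested relatives, were named in addition after their values were seen. With Control 2 and Control 3 named by scanner file, of 7 same-numbered pairs the 4 on one slide deviated together (r from 0.33 to 0.70). The 3 on different slides did not (r from -0.042 to 0.049), so replicate numbers were not taken as pairs. By the value table's naming, each replicate number lies on 1 slide. Those 3 pairs then have r of 0.56, 0.555 and 0.044, so whether the numbers pair the arrays is unsettled. Alternatives covered normalization, background correction, the value table, filters, probes, blocks, weights and leaving out arrays. Precision is limited by the number of arrays.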

Additional observations from a re-analysis of the deposited data

How the results depend on the processing

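Of 24 member results, 6 members in 4 comparisons, 0 were called under any alternative, and the smallest adjusted p was 0.283. Of 522 alternative values 54 changed sign, all in differences that had not been called. The number of genes called was 0 throughout, except 9 for the mean of both siRNAs with array weights, 1 for siRNA 2 against siRNA 1 with only these groups in the fit, and 0 to 1 for siRNA 2 against Control with 1 array left out, the 1 without siRNA 2 replicate 2. With array weights 2659 genes had an unadjusted p under 0.05 for the mean of both siRNAs, against 804, and 1216 without slide 1, 452 without Control replicate 3 and 1352 without Control replicate 2. For siRNA 1 this count was 785, against 2345 with array weights, 477 under median scaling and 1347 without Control replicate 2. For siRNA 2 it was 751, against 2518 with array weights, 1407 without slide 1, 489 without background correction, 1191 and 449 without Control replicates 1 and 3, and 460 without siRNA 2 replicate 2. For siRNA 2 against siRNA 1 it was 754, against 1892 with array weights, 1327 without slide 1, 1402 and 433 without siRNA 1 replicates 1 and 3, and 410 without siRNA 2 replicate 2. The mean of both siRNAs is understood where no comparison is named in what follows. Signs turned with array weights in Irf1 (0.011), in Irf1 for siRNA 2 (0.090), in Ifitm3 for siRNA 2 (0.0075) and in Ifitm2 for siRNA 1 (0.023). Under median scaling they turned in Ifitm3 (-0.025 for siRNA 1, 0.029 for siRNA 2, 0.054 between siRNAs), in Irf1 for siRNA 2 (0.010) and in Isg15 between siRNAs (0.0076, and 0.0083 with the mean over all probes). Ifitm3 turned to -0.0069 in the deposited value table, to -0.0063 under normexp and to -0.013 under quantile normalization, where siRNA 1 gave -0.0031. Ifitm2 turned to -0.0044 under normexp and to -0.0091 without background correction, where Ago3 turned to 0.0053. With slide as a block Irf1 turned to 0.0085 for siRNA 2. The replicate block is a pairing that the labels do not state and that depends on the naming of Control 2 and Control 3. The replicate block called 0 genes and turned Ifitm3 to -0.010, and between siRNAs Ifitm1 to -0.0061 and Irf1 to -0.017. Without the arrays of slide 1 the signs turned in Ifitm1 (-0.094, with -0.13 for siRNA 1 and -0.053 for siRNA 2), Ifitm3 (-0.088, with -0.058 for siRNA 1), Ifitm2 for siRNA 1 (0.078), Ifit1bl2 (-0.22), Ifitm5 (-0.017), Irf5 (-0.010) and Dicer1 (0.051). With 1 array left out, Ifit2 ranged from -0.037 to 0.26 for siRNA 1 and from -0.072 to 0.44 between siRNAs, Ifitm1 from -0.053 to 0.27 for siRNA 1 and from -0.060 to 0.25 between siRNAs, and Ifitm2 from -0.053 to 0.14, with -0.13 to 0.061 for siRNA 1. Likewise Ifitm3 ranged from -0.035 to 0.047, with -0.024 to 0.058 for siRNA 1, -0.083 to 0.064 for siRNA 2 and -0.096 to 0.050 between siRNAs, and Irf1 from -0.16 to 0.092, with -0.24 to 0.061 for siRNA 1, -0.24 to 0.18 for siRNA 2 and -0.15 to 0.27 between siRNAs. Ifit1bl2 ranged from -0.060 to 0.36, Ifitm5 from -0.0072 to 0.18, Ifnab from -0.091 to 0.012 and Ptpn2 from -0.0026 to 0.055. The cause of these turns was not tested. Isg15 stayed lower for the mean of both siRNAs in all 21 alternatives, from -0.29 to -0.17. Low signal limits Ifit1 and Ifit3, which have only bounds, and Irf7, which was well above background on 4 of 8 arrays, and a change common to Control and both siRNAs could not be seen.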
